A study of Homo sapiens with 6 samples.

Results

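The 7 genes examined were the CC chemokine ligands CCL3, CCL4, CCL4L2 and CCL5 and the receptors CCR1, CCR2 and CCR10, taken by symbol from the 58735 genes of the expression table. They were selected on measured values: the FPKM of CCL3 in these same libraries was already known to be lower after PRMT1 knockdown. The difference between PRMT1 KD and control is therefore described for these genes and is not tested. FPKM is the number of fragments on a gene scaled by the length of the gene and the size of the library. RNA was sequenced from MM.1S, 1 established human multiple myeloma cell line, transfected with a negative control siRNA (si-NC, control, n = 3) or an siRNA against PRMT1 (PRMT1 KD, n = 3). The methods of the study give 100 nM siRNA and collection 72 h after transfection, and the labels do not name which PRMT1 siRNA was used. The labels do not say whether the 3 libraries of a group came from separate cultures, and the methods call the biological replicates dependent. The p-values below therefore measure only the spread between these libraries.

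CC chemokines are small secreted proteins that attract leukocytes by binding G protein-coupled receptors on the surface of the target cell. CCL3 is also called MIP-1alpha, CCL4 MIP-1beta and CCL5 RANTES, and CCL3 and CCL5 both bind CCR1. In multiple myeloma, CCL3 made by the malignant plasma cells is known as an osteoclast-stimulating factor of bone disease, and CCR1 is a receptor through which it acts on osteoclast precursors. CCR2 is the receptor for the monocyte chemoattractant CCL2, and CCR10 is the receptor for CCL27 and CCL28 that plasma cells use to home to epithelial tissues.

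The libraries held between 14439217 and 16465026 reads on genes, worked back from the FPKM values and gene lengths. PRMT1 itself fell from 61.1 ± 1.97 FPKM in control to 13.3 ± 0.775 FPKM in PRMT1 KD (mean ± SD, n = 3 each), a difference of -2.13 on the log2(FPKM + 1) scale with an adjusted p of 2.77e-05 by limma. Among 13585 genes with a mean of at least 1 FPKM, limma called 134 lower and 145 higher in PRMT1 KD at an adjusted p under 0.05, which is 0.986% and 1.07% of the genes tested. Rescaled to TPM, the split was 133 lower and 222 higher. The 3 PRMT1 KD values all lay below the 3 control values in 12.3% of the genes tested and all above them in 13.6%. All 9 plasma cell markers on a list, among them SDC1, TNFRSF17 and IRF4, passed the filter.

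The ligands are encoded close together on chromosome 17 and exist partly as near copies, so the sequences of CCL3 and its copy are shown before the values. On GRCh38, CCL3 (ENSG00000277632) is a protein-coding gene of 3 exons on the minus strand at chr17:36088256-36090169. CCL4 (ENSG00000275302) lies 15.4 kb away from it, midpoint to midpoint, on the plus strand at chr17:36103590-36105621. CCL4L2 (ENSG00000276070) lies 123 kb away on the plus strand at chr17:36210924-36212878, and CCL5 (ENSG00000271503) lies 213 kb away in the other direction, on the minus strand at chr17:35871491-35880793. A copy of CCL3, named CCL3L1 in the deposited table, lies 107 kb from CCL3 at chr17:36194869-36196758. The coding sequences of CCL3 and its copy, from GENCODE release 29, are shown 5′ to 3′ with the bases that differ between them in capitals, because reads within the coding part of the 2 genes can be told apart only where they cover such a base.

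CCL3: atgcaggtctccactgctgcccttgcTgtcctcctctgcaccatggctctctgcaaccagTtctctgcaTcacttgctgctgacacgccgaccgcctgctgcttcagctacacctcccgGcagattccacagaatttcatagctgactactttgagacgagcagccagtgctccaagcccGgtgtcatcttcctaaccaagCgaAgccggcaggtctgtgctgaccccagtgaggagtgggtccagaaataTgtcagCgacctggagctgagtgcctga

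CCL3L1: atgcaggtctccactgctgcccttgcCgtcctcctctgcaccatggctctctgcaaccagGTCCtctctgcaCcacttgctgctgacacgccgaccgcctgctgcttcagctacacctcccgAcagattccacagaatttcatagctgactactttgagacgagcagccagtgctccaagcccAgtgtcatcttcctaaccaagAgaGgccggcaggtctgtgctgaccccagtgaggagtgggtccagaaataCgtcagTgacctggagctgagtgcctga

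The coding sequence of CCL3 is 279 bases and that of CCL3L1 is 282 bases. They differ at 9 aligned bases and by a gap of 3 bases, an identity of 95.7%. Of the 50-base windows of the CCL3 transcript, 9.88% also occur in a CCL3L1 transcript, and 0% of the 100-base and of the 150-base windows do. A read as short as 50 bases could therefore be shared between the genes in parts of the transcript, and a read of 100 or 150 bases within it could not. The methods of the study name paired reads of 150 bases for its methylated RNA libraries. They give no separate read length for the RNA-seq libraries.

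Among the ligands, CCL3 had the highest level and was lower in PRMT1 KD. Its FPKM was 20.3, 21.8 and 22.1 in control and 9.57, 7.49 and 8.31 in PRMT1 KD. The groups did not overlap: the highest PRMT1 KD library lay below the lowest control library. The mean was 21.4 ± 0.982 FPKM in control and 8.45 ± 1.05 FPKM in PRMT1 KD (SD, n = 3 each), so that PRMT1 KD held 39.5% of the control level. The difference was -1.25 on the log2(FPKM + 1) scale (SE 0.086), and CCL3 ranked 14th from the lowest difference among the 13585 genes tested.

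CCL3 rested on 161 to 546 reads per library. These were 502, 526 and 546 reads in control and 236, 161 and 189 in PRMT1 KD. The counting error of a single library was thus 4.28% to 7.88% of its value. The SD between libraries was 4.59% of the mean in control and 12.4% in PRMT1 KD, so the PRMT1 KD libraries were spread more widely than the control libraries.

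CCL5 had the second highest level of the ligands and was also lower in PRMT1 KD. Its FPKM was 4.31, 4.47 and 4.76 in control and 2.16, 2.62 and 3.69 in PRMT1 KD. The groups did not overlap, but PRMT1 KD replicate 3 lay close to the control range. The mean was 4.52 ± 0.228 FPKM in control and 2.82 ± 0.784 FPKM in PRMT1 KD, 62.5% of the control level, and the difference was -0.55 on the log2(FPKM + 1) scale (SE 0.142).

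Fewer reads lay behind CCL5 than behind CCL3. These were 108, 109 and 119 reads in control and 54, 57 and 85 in PRMT1 KD, which gave a counting error of 9.17% to 13.6%. In PRMT1 KD the SD between libraries, 27.8% of the mean, was wider than this counting error, and in control it was 5.05%. CCL5 ranked 179th from the lowest difference.

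**Figure D1:**
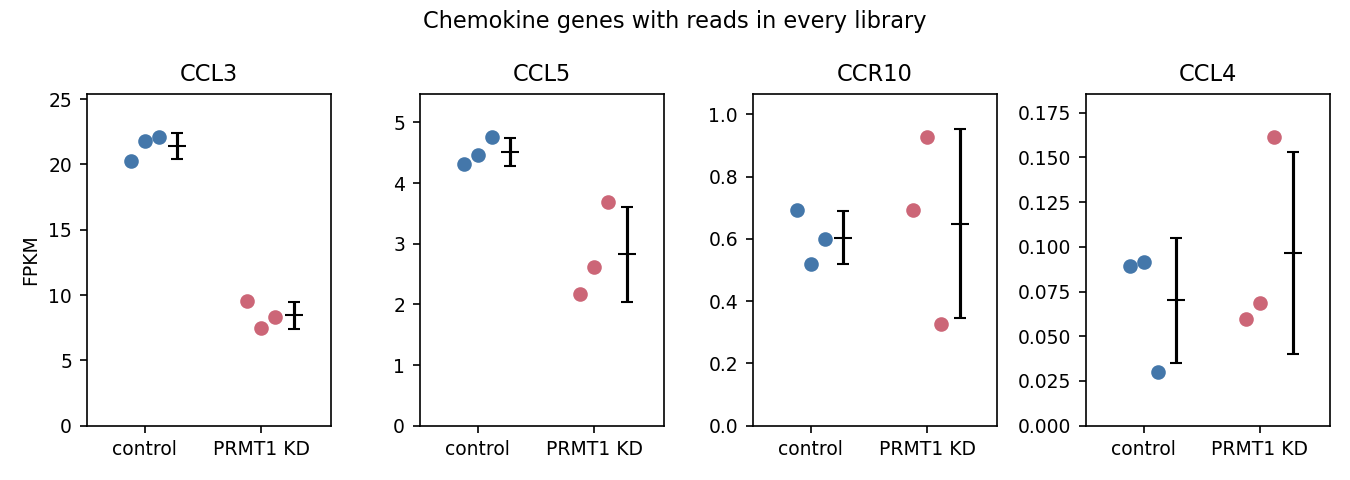
FPKM (vertical axis, linear, from 0, with its own scale for each gene) of the 4 genes with reads in every library, in the 3 control libraries (blue) and the 3 PRMT1 KD libraries (red), with the mean and SD of each group in black. The groups are apart for CCL3 (20.3 to 22.1 against 7.49 to 9.57) and CCL5 (4.31 to 4.76 against 2.16 to 3.69) and overlap for CCR10 and CCL4.

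CCL3 and CCL5 were the only members of the 7 with a mean of at least 1 FPKM, and both of these 2 had groups that did not overlap. Since this contrast was used to select the members, nothing is read from that count beside the 12.3% over all genes. Over the 6 libraries, log2(FPKM + 1) of CCL3 and CCL5 had a Pearson r of 0.812, a description of libraries that fall into the same 2 groups for both genes. The ratio of CCL3 to CCL5 in FPKM was 4.70, 4.88 and 4.64 in control and 4.42, 2.86 and 2.25 in PRMT1 KD. The ratio was lowest in PRMT1 KD replicate 3, where CCL5 was nearest to control while CCL3 was not.

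CCL4 and CCL4L2 were near or below the limit of these libraries. CCL4 held 3, 3 and 1 reads in control and 2, 2 and 5 in PRMT1 KD, which is 0.0892, 0.0916 and 0.0298 FPKM against 0.0596, 0.0684 and 0.162 FPKM. The groups overlapped, and no difference was detectable at this depth. CCL4L2 held 1, 0 and 1 reads in control and was listed at 0 in all 3 PRMT1 KD libraries, where 3 reads would have been worth 0.130 to 0.149 FPKM. No fold is given for it, since both groups lay under 3 reads per library. CCL4 and CCL4L2 are near copies. Of the windows of the CCL4 transcript, 21.3% of 50 bases, 5.59% of 100 bases and 0% of 150 bases also occur in a CCL4L2 transcript. How these few reads divide between them depends on the read length and is uncertain for short reads.

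The copy CCL3L1 was low beside CCL3. It held 21, 8 and 11 reads in control and 1, 4 and 9 in PRMT1 KD, or 0.863, 0.338 and 0.453 FPKM against 0.0412, 0.189 and 0.402 FPKM. Its mean was 0.551 FPKM in control and 0.211 FPKM in PRMT1 KD, 38.2% of the control level on few reads. The groups overlapped, and its mean was under the filter. With the reads of CCL3L1 added to those of CCL3, the difference was -1.25 on the log2(FPKM + 1) scale, as for CCL3 alone. CCL3 also shares 1115 exon bases, 74.6% of its own, with the antisense gene AC243829.4, which was listed at 0 in all 6 libraries. The sources used here do not say whether the counting used strand, and without strand the reads of such a pair cannot be told apart. The length used for CCL3, 1494 bases, is the union of its annotated exons and is 1.92 times the length of its 778-base coding transcript, so its FPKM is lower than a value per length of that transcript would be, by the same factor in every library.

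CCL5 lies within the span of an antisense gene, AC015849.1, which shares 0 exon bases with it. AC015849.1 stood at 0.320, 0.164 and 0.721 FPKM in control and at 0.321, 0.0920 and 2.00 FPKM in PRMT1 KD. It was highest in PRMT1 KD replicate 3, the library in which CCL5 was nearest to control, and its part in the CCL5 value was not tested.

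The 3 receptors were lower than CCL3 and CCL5 in every library. CCR10 (ENSG00000184451, chr17:42678889-42683917, minus strand) was the only one of them with reads. Its FPKM was 0.692, 0.521 and 0.601 in control and 0.694, 0.928 and 0.326 in PRMT1 KD. The lowest and the highest of the 6 libraries were both PRMT1 KD libraries, and the groups overlapped. The reads came to 78 in control and 78 in PRMT1 KD, and the difference was 0.02 on the log2(FPKM + 1) scale. The counting error of a single library was 16.9% to 27.7% for this gene. CCR10 shares 381 exon bases with CNTNAP1 on the opposite strand, which stood at 1.41 to 1.88 FPKM, and 439 with the antisense gene AC100793.2, and reads in the overlaps cannot be told apart unless strand was used in the counting.

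CCR1 (ENSG00000163823, chr3:46201709-46208396, minus strand), a receptor of CCL3 and CCL5, was listed at 0 in all 6 libraries. CCR2 (ENSG00000121807, chr3:46353734-46360928, plus strand) was also listed at 0 in all 6 libraries. At this depth 3 reads would have been worth 0.0663 to 0.0763 FPKM for CCR1 and 0.0485 to 0.0558 FPKM for CCR2. Genes that every cell uses also had low or no values in this table: CALM2, a calmodulin gene, was listed at 0 in all 6 libraries, and CDC42, which controls cell polarity, stood at 0.168 to 0.292 FPKM. A listed 0 is therefore given only as such, and no fold is given for CCR1 or CCR2.

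In order of their mean FPKM, which is scaled by gene length, the members ran CCL3, CCL5, CCR10 and CCL4 in control and in PRMT1 KD. CCL4L2 followed in control and was listed at 0 in PRMT1 KD, and CCR1 and CCR2 were listed at 0 in both groups. CCL3 lay above CCL5 in all libraries, with a lowest value of 7.49 FPKM against a highest of 4.76. CCL5 lay above CCR10, and CCR10 above CCL4, without overlap. CCL4 and CCL4L2 overlapped in control and could not be ordered.

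CCL3 made up most of the summed FPKM of the chemokine ligand genes as listed. This share depends on the gene lengths used and on the listed zeros, which are given only as such. Of 46 chemokine ligand genes in the table, 29 were listed at 0 in all libraries. The FPKM of all 46 summed to 30.3, 29.9 and 31.3 in control and to 15.2, 13.6 and 15.7 in PRMT1 KD. CCL3 gave 67.0%, 73.0% and 70.7% of this sum in control and 63.0%, 55.0% and 53.0% in PRMT1 KD, so that its share was lower in every PRMT1 KD library than in any control library. CCL5 gave 14.2% to 15.2% in control and 14.2% to 23.6% in PRMT1 KD, ranges that overlapped.

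**Figure D2:**
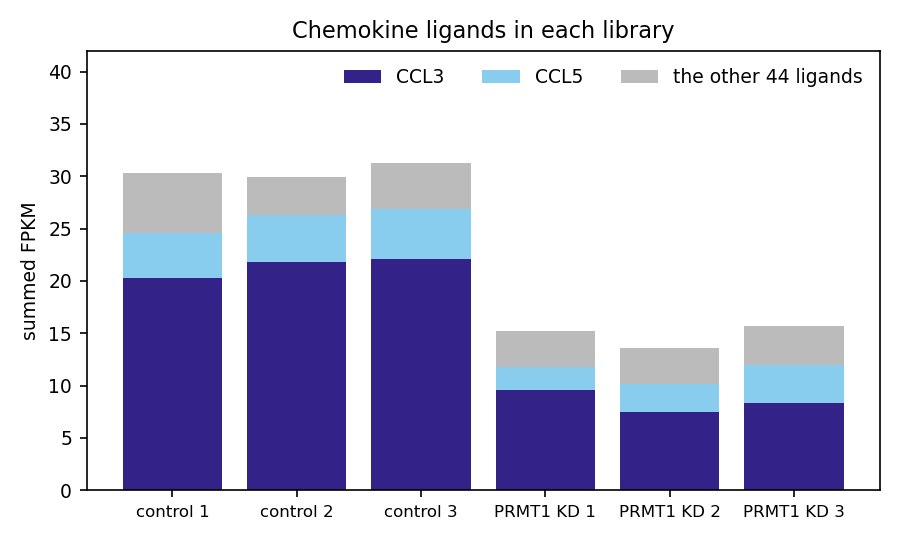
Summed FPKM of the 46 chemokine ligand genes in each library (vertical axis, linear, from 0), divided into CCL3 (dark blue), CCL5 (light blue) and the other 44 ligands (grey). The sum is 29.9 to 31.3 in control and 13.6 to 15.7 in PRMT1 KD, and CCL3 is the largest piece of every bar.

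The other CC ligands contributed little. Of 24 genes on this list, 22 were found in the table, 15 were listed at 0 and 0 reached a mean of 1 FPKM, CCL3L1 being the highest of them and CCL17 (mean 0.222 FPKM) the next. Among the 20 CXC, XC and CX3C ligands, 14 were listed at 0 and 1, CXCL17, passed the filter. CXCL17 had a mean of 1.93 ± 0.303 FPKM in control and 1.47 ± 0.133 FPKM in PRMT1 KD and was not called (adjusted p = 0.304 by limma). Its groups did not overlap either, at 2.23, 1.93 and 1.63 FPKM in control and 1.58, 1.52 and 1.33 FPKM in PRMT1 KD. Groups lay apart in this direction in 12.3% of all genes tested, so this trait is not particular to CCL3 and CCL5. XCL1, a ligand of XCR1, had a mean of 0.771 FPKM in control and 0.706 FPKM in PRMT1 KD. In mean FPKM over all 6 libraries the order was CCL3 (14.9), CCL5 (3.67) and CXCL17 (1.70), and every value of CCL3 lay above every value of the other 2.

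None of the other 20 chemokine receptors reached a mean of 1 FPKM, and 10 of them, CCR3 and CXCR4 among them, were listed at 0 in all 6 libraries. The highest was ACKR3, an atypical receptor that binds CXCL12 without G protein coupling, at 1.10, 0.961 and 0.831 FPKM in control and 0.644, 0.431 and 0.494 FPKM in PRMT1 KD. Its groups did not overlap, and it lay under the filter and was not tested. CXCR6 followed CCR10 in the order, with a mean of 0.351 FPKM in control and 0.550 FPKM in PRMT1 KD. Its groups did not overlap either, in the other direction: 0.385, 0.362 and 0.305 FPKM in control and 0.418, 0.534 and 0.697 FPKM in PRMT1 KD. CXCR6 also lay under the filter and was not tested. By mean FPKM over the 6 libraries, CCR10 was thus second of the 23 receptor genes as listed, but this place was not stable. It lay above ACKR3 in PRMT1 KD replicate 1 (0.694 against 0.644 FPKM) and replicate 2 (0.928 against 0.431). In PRMT1 KD replicate 3 it lay below CXCR6 (0.326 against 0.697 FPKM). The listed zeros, those of CXCR4 and CCR1 among them, are given only as such and are not read as absence.

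The genes that act downstream of chemokine receptors, a list of 30 G protein, kinase, arrestin and GTPase genes, were mostly measured in these cells. Of the 22 tested, 0 were called lower and 1 was called higher, against 0.986% and 1.07% of all genes tested, and the median difference was 0.01 beside 0.0095 over all genes. The groups were apart in 5 lower and 6 higher genes of the 22, larger shares than the 12.3% and 13.6% over all genes tested. The gene called higher was ARRB2, which encodes beta-arrestin 2, an adaptor that desensitizes these receptors. Its FPKM was 15.9, 16.7 and 15.5 in control and 19.9, 19.5 and 20.9 in PRMT1 KD, a difference of 0.31 on the log2(FPKM + 1) scale (adjusted p = 0.0405 by limma). The call was lost when any 1 of the 6 libraries was left out, and the adjusted p ranged from 0.0113 to 0.173 over 14 alternatives, 5 of them under 0.05. RAC1, a GTPase of cell migration, had 38.9 ± 2.52 FPKM in control and 49.2 ± 2.36 FPKM in PRMT1 KD and was not called (adjusted p = 0.0503 by limma).

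The sequence before the CCL3 gene was examined because the ligand and its copy could be compared there. Of the 7 members, CCL3, CCR1 and CCR2 had an entry in the RefSeq promoter table (GRCh38.p14), which holds 250 bases before and 50 after a start site. The first start site of CCL3, at chr17:36090094-36090393 on the minus strand, and that of the copy, which RefSeq names CCL3L3, at chr17:36196709-36197008 on the minus strand, are shown 5′ to 3′. Capitals mark TATAAA, the TATA box letters, and TGTGGT, the core letters bound by RUNX factors.

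CCL3 promoter: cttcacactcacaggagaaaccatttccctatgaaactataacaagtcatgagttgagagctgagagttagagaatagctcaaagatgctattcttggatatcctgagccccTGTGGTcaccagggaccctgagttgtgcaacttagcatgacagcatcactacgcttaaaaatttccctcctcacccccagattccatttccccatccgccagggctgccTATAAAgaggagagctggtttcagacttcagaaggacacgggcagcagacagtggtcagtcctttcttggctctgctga

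CCL3L3 promoter: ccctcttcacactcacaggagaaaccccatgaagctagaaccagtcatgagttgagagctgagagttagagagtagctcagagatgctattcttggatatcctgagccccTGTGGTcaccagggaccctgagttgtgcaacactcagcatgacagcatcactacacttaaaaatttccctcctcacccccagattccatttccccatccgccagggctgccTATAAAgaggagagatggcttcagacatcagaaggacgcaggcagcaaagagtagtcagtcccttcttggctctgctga

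The 2 promoters were identical at 277 of 306 aligned columns, or 90.5%. TATAAA, searched on the strand of the gene, began 29 bases before the start of both and occurs in 7.33% of 35116 promoters of the same length. TGTGGT, searched on both strands, began 138 bases before the start of CCL3 and 140 before that of CCL3L3 and occurs in 13.1% of promoters. The letters TTNNGNAA, a C/EBP pattern searched on both strands, matched 116 bases before the CCL3 start and occur in 36.8%. An NF-kB pattern (GGG and TTCC with 3 bases of any kind between them), found in 6.52% of promoters, and TGANTCA, an AP-1 pattern found in 7.71%, searched on both strands, are not in these letters for CCL3 or CCL3L3. In the CCR2 promoter TGANTCA matched once, 212 bases before the start, and in the CCR1 promoter TGTGGT matched once, 157 bases before the start. No motif searched overlapped another in the CCL3 promoter shown. CCL3 has 3 start sites in the RefSeq promoters, and these matches are those of the first. Start sites 2 and 3 held neither TATAAA nor TTNNGNAA. Each matched TGTGGT once, 83 bases before start site 2 and 238 bases before start site 3.

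A list of 19 genes held transcription factors of the RUNX, C/EBP, NF-kB, AP-1 and related families that are known to regulate chemokine genes. Of the 15 tested, 0 were called lower and 0 higher, beside 0.986% and 1.07% of all genes tested, and their median difference was 0.0049. IRF4, a factor of plasma cells, stood at 115.7 FPKM in control and 116.1 FPKM in PRMT1 KD, and JUND, an AP-1 subunit, at 117.1 FPKM and 115.4 FPKM. The differences on the list ran from -0.21 to 0.37 on the log2(FPKM + 1) scale. In 3 genes the PRMT1 KD values all lay above the control values without being called, beside 13.6% of all genes tested: JUNB (46.6 FPKM in control and 60.4 FPKM in PRMT1 KD, adjusted p = 0.0864 by limma), RELB (30.4 and 37.8 FPKM, adjusted p = 0.0629) and RUNX1 (8.17 and 9.78 FPKM, adjusted p = 0.104).

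The 3′ untranslated region of CCL3 is AU-rich, a feature of short-lived cytokine mRNAs that is read by proteins controlling mRNA decay. Its 416 bases hold the letters ATTTA 4 times. Of 1868 genes with a 3′ untranslated region within 20% of this length, 3.48% hold as many. That of CCL4, with 309 bases, holds 2 and that of CCL5, with 886 bases, holds 0. The part of this feature in the CCL3 and CCL5 values was not tested. Of 8 proteins that bind AU-rich mRNA, 8 were tested, 0 were called lower and 0 higher, and the median difference was 0.05. KHSRP, which promotes decay, had a mean of 85.3 FPKM in control and 78.0 FPKM in PRMT1 KD, and HNRNPD (AUF1) had 64.3 FPKM and 62.8 FPKM. These were the 2 of the 8 with a difference below 0. ZFP36 (tristetraprolin), which also promotes decay, had 19.6 FPKM in control and 22.6 FPKM in PRMT1 KD, with groups that did not overlap, and was not called (adjusted p = 0.195 by limma).

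No gene tested within 500 kb of the ligands was called, but the immediate surroundings of CCL3 held no other gene that was tested. Within 500 kb of CCL3 or CCL5, 78 genes that are no members were listed, 34 of them had a value above 0 and 11 were tested. Of these, 0 were called lower and 0 higher by limma, and their median difference was -0.0061. The nearest of the 11 to CCL3, midpoint to midpoint, was the pseudogene AC233699.1 at 208 kb. The nearest to CCL5 was the antisense gene AC015849.3 at 52.6 kb. Groups did not overlap in 1 lower gene, LINC02001, and in 2 higher genes, AP2B1 and MYO19, counts of 11 that lie near the 12.3% and 13.6% over all genes tested. The lowest difference among them was that of the pseudogene AC004134.1, at -0.75 with a mean of 1.99 FPKM in control and 0.765 FPKM in PRMT1 KD, and its groups overlapped. It held 1 to 10 reads per library, and its difference was -1.33 with a pseudocount of 0.1, beside -1.34 for CCL3. TAF15, the most highly expressed neighbour, had 26.5 FPKM in control and 27.4 FPKM in PRMT1 KD. Within 500 kb of CCR2, 2 genes were tested, FYCO1 with a difference of 0.28 and ALS2CL with 0.09, and 0 were called.

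**Figure D3:**
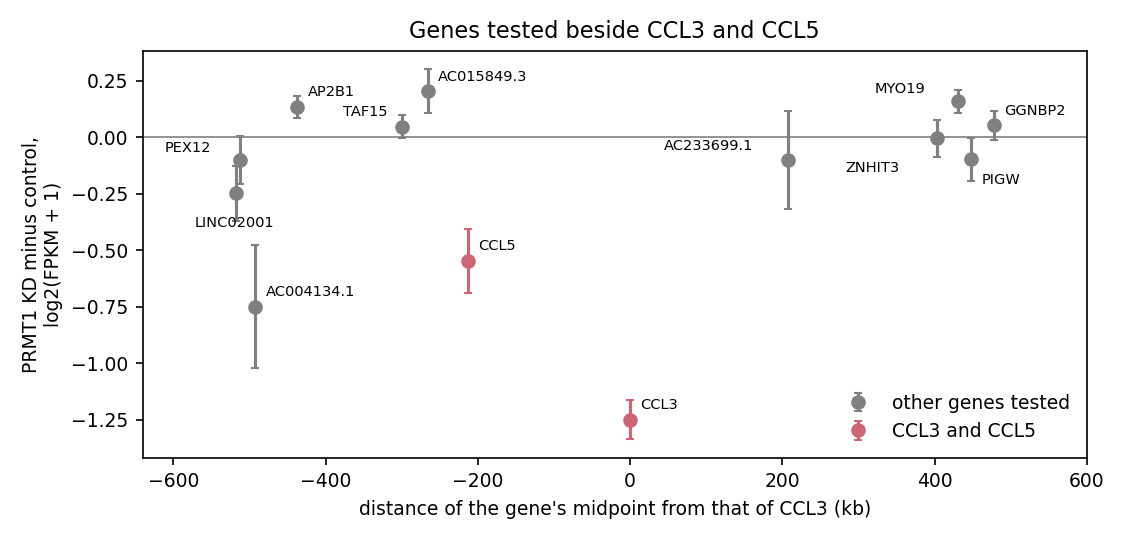
Difference between PRMT1 KD and control on the log2(FPKM + 1) scale (vertical axis) of the genes tested within 500 kb of CCL3 or CCL5, against the distance of each gene's midpoint from that of CCL3 in kb, with bars for the SE of the fit. CCL3 (-1.25) and CCL5 (-0.55), in red, stand beside 11 other genes in grey whose median is -0.0061.

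The protein-coding genes whose log2(FPKM + 1) most resembled that of CCL3 over the 6 libraries were FAM177A1 (Pearson r 0.994), ITGAL (0.994), USF1 (0.994), SMCO4 (0.992) and IRF5 (0.991). ITGAL, the alpha chain of the integrin LFA-1, went from 3.86 ± 0.0348 FPKM in control to 1.65 ± 0.223 FPKM in PRMT1 KD. IRF5, an interferon regulatory factor, went from 5.61 ± 0.303 to 3.17 ± 0.311 FPKM. The difference was -0.88 for ITGAL and -0.67 for IRF5, but -0.17 for FAM177A1 and -0.14 for USF1, since the correlation reads the shape over the libraries and not the size. These genes were found on the same libraries that show the CCL3 difference and are listed as a description.

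Most other secreted factors known in myeloma bone disease were low or listed at 0 in these cells, and none was called. Of 16 genes, 7 were listed at 0, IL6 and SOST among them, and 2 passed the filter. VEGFA had 13.0 ± 0.744 FPKM in control and 14.2 ± 0.452 FPKM in PRMT1 KD (adjusted p = 0.319 by limma). CSF1, the macrophage growth factor that osteoclasts need, had 1.69 ± 0.241 FPKM and 1.66 ± 0.0369 FPKM (adjusted p = 0.968). DKK1, a Wnt inhibitor made by many myeloma cells, was under the filter at a mean of 0.138 FPKM in control and 0.0795 FPKM in PRMT1 KD.

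CCL3, CCL4 and CCL5 are also made by monocytes, T cells and NK cells, while these libraries came from 1 cultured myeloma cell line, MM.1S. In bulk RNA, fewer cells that express a gene and less RNA per cell cannot be told apart. None of 8 monocyte and macrophage markers passed the filter, 3 of them, FCN1, S100A8 and S100A9, were listed at 0, and their summed FPKM was 0.129 to 0.154 in control and 0.0553 to 0.160 in PRMT1 KD. Of 8 T and NK cell markers, 3 were tested and 0 called, with a summed FPKM of 36.1 to 40.4 in control and 40.0 to 43.2 in PRMT1 KD. Nearly all of that sum was CD3E, at 33.4 FPKM in control and 38.1 FPKM in PRMT1 KD, while CD8A was listed at 0 and CD3D had a mean of 0.678 FPKM in control and 0.132 FPKM in PRMT1 KD. Among the 9 plasma cell markers 1 was called lower and 0 higher, beside 0.986% and 1.07% of all genes tested. It was SLAMF7, the surface receptor targeted by elotuzumab, at 37.8, 39.0 and 37.1 FPKM in control and 23.4, 22.9 and 25.1 FPKM in PRMT1 KD, a difference of -0.65 (adjusted p = 0.00515 by limma, under 0.05 in 14 of 14 alternatives). The part of these markers in the CCL3 and CCL5 values was not tested.

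**Figure D4:**
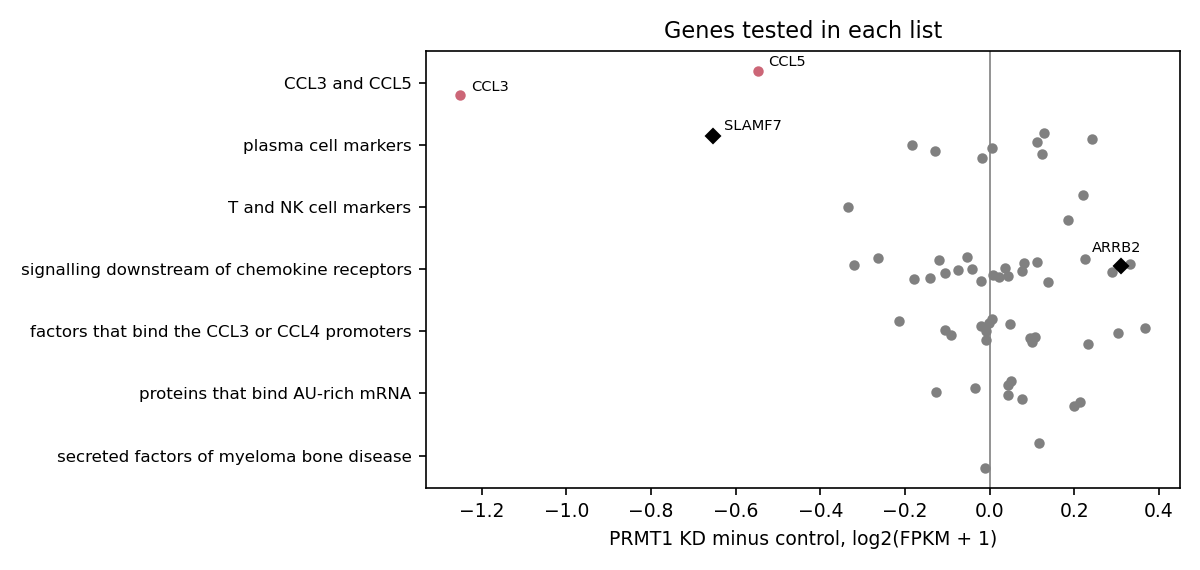
Difference between PRMT1 KD and control on the log2(FPKM + 1) scale (horizontal axis) for each gene tested in 6 lists, with the genes called by limma as labelled black diamonds, and for CCL3 and CCL5 in red, which are described and not tested. SLAMF7 (-0.65) and ARRB2 (0.31) are the 2 genes called. CCL3 (-1.25) was selected on this same contrast, so nothing is read from its place beside the lists.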

How the data were processed

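The deposited table gives, for every gene, an FPKM value in each library with its length and coordinates, made by the authors. The submitters' processing notes name featureCounts 1.5.0-p3 and the build hg38. The aligner, annotation release and strand setting were not given in the sources used here, where the study's methods describe library work by a company. Multiplied by gene length, the deposited FPKM came out as whole steps of 1 size per library in 100% of cases (tolerance 0.01 reads), giving the reads on each gene. All 58735 gene identifiers and coordinates matched GENCODE release 29.

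Groups and replicate numbers came from the labels. An unpaired fit on log2(FPKM + 1) used limma (version 3.58.1, under R version 4.3.3) with its trended empirical Bayes moderation, two-sided, and Benjamini-Hochberg adjustment over all genes tested, those whose mean reached 1 FPKM. Differences on this scale understate the change of low genes. The script was tested on simulated data with known changes. Counting errors cover counting alone and were taken from the reads worked back.

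The members and the gene lists were chosen with earlier results of these data known. Genes named beside the members are PRMT1, the genes called in each list or, where none was called, the 2 with the highest mean FPKM, the genes tested within 500 kb, and the 5 protein-coding genes most correlated with CCL3. RAC1, JUNB, RELB, RUNX1, ZFP36, ACKR3, CXCR6, CCL17, CD3D, DKK1, CALM2, CDC42 and genes listed at 0 were named after their values were seen. Coding sequences came from GENCODE release 29 (the APPRIS principal transcript, otherwise the longest), and promoters from RefSeq (GRCh38.p14). Sequences were aligned with Biopython 1.88. Alternatives were another pseudocount, other filters, TPM, quantile normalization, the replicate block, no trend, voom on the reads worked back, each library left out and, chosen after seeing the data, the reads of CCL3L1 added to CCL3. Some items are not reported here.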

Additional observations from a re-analysis of the deposited data

How the results depend on the processing

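CCL3 was selected on this contrast, and the groups of CCL3 and of CCL5 did not overlap. Leaving out a library or changing the pseudocount could therefore not reverse either direction, and the alternatives describe only the size of the differences. That of CCL3 was -1.34 with a pseudocount of 0.1, -1.30 on TPM, -1.27 after quantile normalization, -1.36 with voom and -1.33 to -1.18 with each library left out. CCL5 stood at -0.69, -0.64, -0.55 and -0.73 in the same order and at -0.70 to -0.42 with each library left out, and it gave no value when a mean of 5 FPKM was required. CCL4 moved from 0.03 to 0.19 with a pseudocount of 0.1. CCR10 ran from -0.10 to 0.17 and CCL4 from -0.01 to 0.06 with each library left out. Both rest on few reads, and the fits that need the filter gave them no value.

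The 279 genes called over all genes tested became 35 without a filter (20 lower, 15 higher), 473 when a mean of 5 FPKM was required, 43 without a trend, 889 with voom (482 lower, 407 higher) and 13 to 94 with any 1 of the 6 libraries left out. The cause was not tested. Over the lists other than cell type markers the 1 gene called became 0 without a filter or without a trend, 4 when a mean of 5 FPKM was required, 2 on TPM, 2 after quantile normalization, 9 with voom and 0 with any 1 of the libraries left out.

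The labels give both groups the same replicate numbers. After subtracting the group means, the libraries of equal number had correlations of 0.0200, 0.0631 and 0.101. Those of unequal number ran from -0.0751 to 0.0186, all lower, so these values do not settle whether the numbers pair the libraries. The main fit was left unpaired because the methods of the study compare unpaired groups. The same methods call the biological replicates of each experiment dependent, without saying in what way. With the replicate block, 204 genes were called, 147 of them among the 279, these lists held 2 (1 lower, 1 higher), and the adjusted p of ARRB2 was 0.0598 by limma. The differences of CCL3 and CCL5 were again -1.25 and -0.55. Each replicate number has 1 library in each group, so the block could not change a difference.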
